A study of Mus musculus with 30 samples.

Results

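The ligands, receptors and inhibitors of the TGF-beta and activin pathways were examined in transplanted mouse fibrosarcomas. The members are 10 genes of 48440 in the count table, chosen by gene symbol: the ligand genes Tgfb1, Tgfb2, Tgfb3, Inhba, Inhbb and Gdf15, the receptor genes Tgfbr1, Tgfbr2 and Tgfbr3, and the inhibitor gene Fst. All 10 symbols matched 1 Ensembl gene each, and 10 of 10 passed the filter on low counts, as did 16862 genes in all.

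Bulk RNA was sequenced from 30 tumors grown in C57BL/6 mice from 5 primary lines, which had been made with the carcinogen methylcholanthrene (MCA). The question of the study was how lines that NK1.1+ cells restrain differ from lines that they do not. The non-sensitive lines were MCA-943 with 4 tumors and MCA-969 with 8, and the sensitive lines were MCA-948 with 8, MCA-970 with 6 and MCA-972 with 4. Hematopoietic cells had been removed with CD45 beads before RNA extraction.

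All tumors shared the C57BL/6 background and the Ncr1Cre allele, which drives Cre recombinase from the gene of the NK cell receptor NKp46. The labels give the strain Ncr1Cre for MCA-943 and Ncr1Cre R26DTA for the other 4 lines, where Cre turns on diphtheria toxin A from the Rosa26 locus. They do not say whether the strain is that of the host or of the mouse in which the line arose, and age is not given in the sources used here. For the transplantations of the lines the study describes C57BL/6 hosts, and it sorts the lines by the genotype of the mouse in which the primary tumor arose. Each line is 1 isolate, so strain, line and sensitivity cannot be told apart for MCA-943. The labels call MCA-969 W-1D and W-2D sensitive and the other 6 MCA-969 tumors not, and all 8 were kept as non-sensitive, as the study classes the line. In the transplantations cells were put under the skin of a flank, some mice were given a depleting antibody against NK1.1, and the labels do not tie either to single sequenced tumors. Tumors of a line were taken as replicates, and p-values measure the spread between these samples only.

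TGF-beta ligands are secreted in a latent complex, are released in the matrix, and then bind the type II receptor, which recruits and phosphorylates the type I receptor. That kinase phosphorylates SMAD2 and SMAD3, which enter the nucleus with SMAD4. Activins, dimers of the inhibin beta subunits, use their own receptors and the same SMADs, and follistatin traps them outside the cell. In fibroblasts TGF-beta is known for raising collagen and contractile genes, and in tumors for restraining NK and T cells.

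Between 27745104 and 46537062 counts per tumor were assigned to genes. Levels are CPM, counts per 1000000 counts after scaling by edgeR's TMM factors, and are given as mean ± SD over the tumors of a line; CPM per kb divides them by the gene length in the count table and serves to compare genes. The fibroblast markers Col1a1, Col1a2 and Vim were present throughout, so the label fibrosarcoma was not contradicted. The summed level of 7 fibroblast and mesenchymal markers lay between 7372 and 40814 CPM in the 30 tumors. The 5 leukocyte markers summed to 3.22 to 95.02 CPM, and the natural killer receptor gene Ncr1 averaged at most 0.935 CPM in a line. In bulk RNA, fewer cells of a type and less RNA per cell cannot be told apart.

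The lines differed in 8 of the 10 genes, each at an adjusted p under 0.05 and at least 2-fold in 1 or more of 10 pairs of lines, and none of the 10 was called in all 6 pairs of a non-sensitive and a sensitive line. Of all genes tested, 59% were called in 1 or more of the 10 pairs. Tgfb3 and Inhbb were each called in 6 pairs, Fst in 5, Tgfbr3 in 4, Tgfb1 in 3, Tgfbr2 in 2, and Tgfb2 and Tgfbr1 in 1. Inhba and Gdf15 were not called in any pair. Over all members and pairs, 28 of 100 values were called, near the 24.5% of all genes and pairs, and nothing about the members is read from this count.

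**Figure D1:**
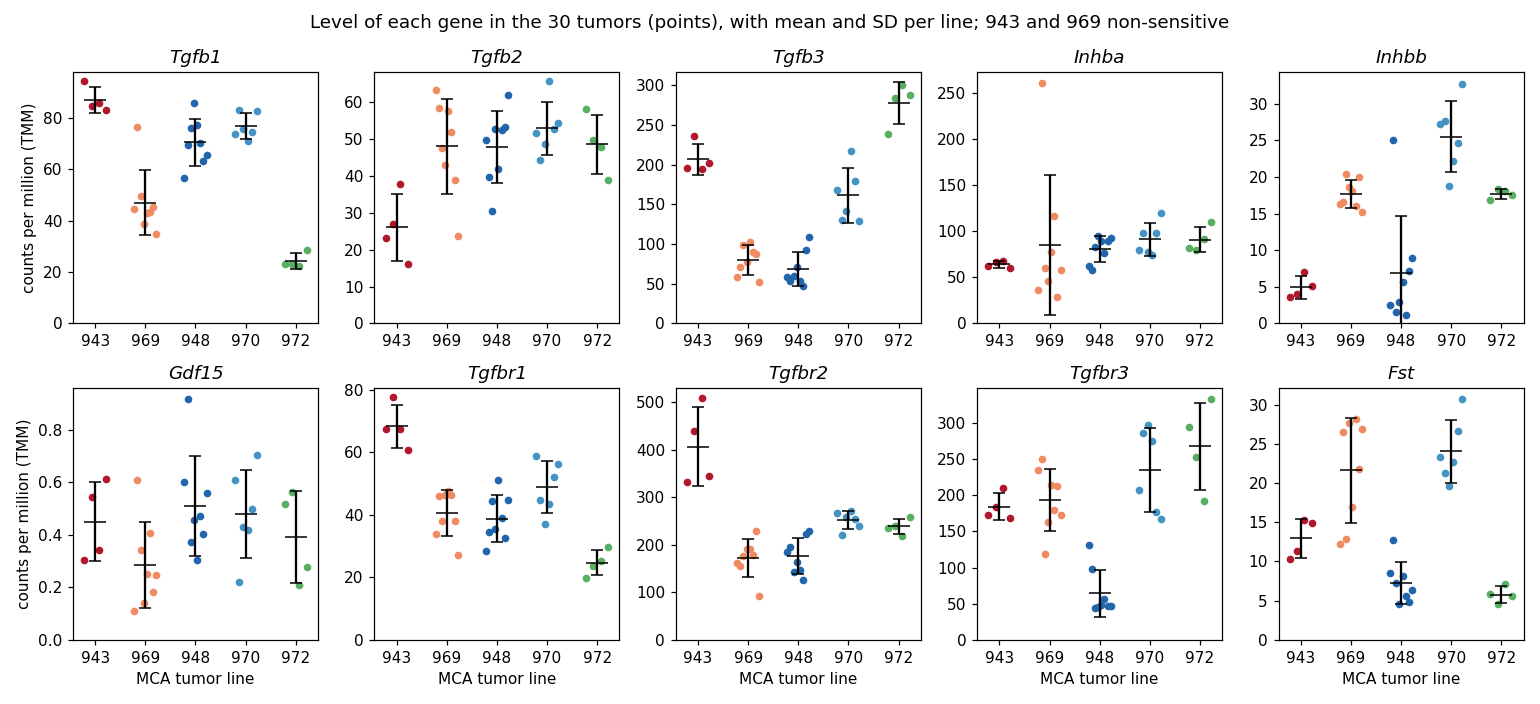
Level of each of the 10 genes in CPM (vertical axes, each from 0) in the 30 tumors, by MCA line, with the non-sensitive lines MCA-943 and MCA-969 at the left of each panel. Points are tumors and bars are mean ± SD (the bar of Inhbb in MCA-948 is cut off at 0); Tgfb1 was lowest in MCA-972, at 22.3 to 28.7 CPM, and Tgfb3 highest there, at 239 to 299.9 CPM.

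Against the sensitive line MCA-948, MCA-943 was higher in 3 members (Tgfb3, Tgfbr2 and Tgfbr3) and lower in 0, where 17.7% of all genes tested were called higher and 11.3% lower. Against MCA-970, MCA-943 was higher in 0 members and lower in 2 (Tgfb2 and Inhbb), against 12.6% and 14.8% of all genes. Against MCA-972 it was higher in 3 (Tgfb1, Tgfbr1 and Fst) and lower in 1 (Inhbb), against 12.2% and 13.4%. The other non-sensitive line gave a different set in each case. MCA-969 was higher than MCA-948 in 3 members (Fst, Inhbb and Tgfbr3) and lower in 0, where 16.8% and 3.91% of genes were called. It was lower than MCA-970 in 1 (Tgfb3) and higher in 0, with 10.7% of genes called in each direction. Against MCA-972 it was higher in 1 (Fst) and lower in 1 (Tgfb3), with 10.3% of genes called in each direction.

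Lines of like sensitivity differed too. MCA-943 exceeded MCA-969 in 2 members (Tgfb3 and Tgfbr2) and was lower in 1 (Inhbb), against 12.1% and 14.9% of all genes. MCA-948 was lower than MCA-970 in 4 members (Fst, Inhbb, Tgfb3 and Tgfbr3) and higher in 0, against 19.8% and 9.64%. It was lower than MCA-972 in 3 (Inhbb, Tgfb3 and Tgfbr3) and higher in 1 (Tgfb1), against 18.5% and 8.27%. MCA-970 was higher than MCA-972 in 2 (Fst and Tgfb1) and lower in 0, against 8.56% and 9.01%. These comparisons share tumors, so the counts are not independent of each other. With 10 members, counts of 0 to 4 lie around the shares over all genes, and nothing is read from them about the pathway as a whole.

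**Figure D2:**
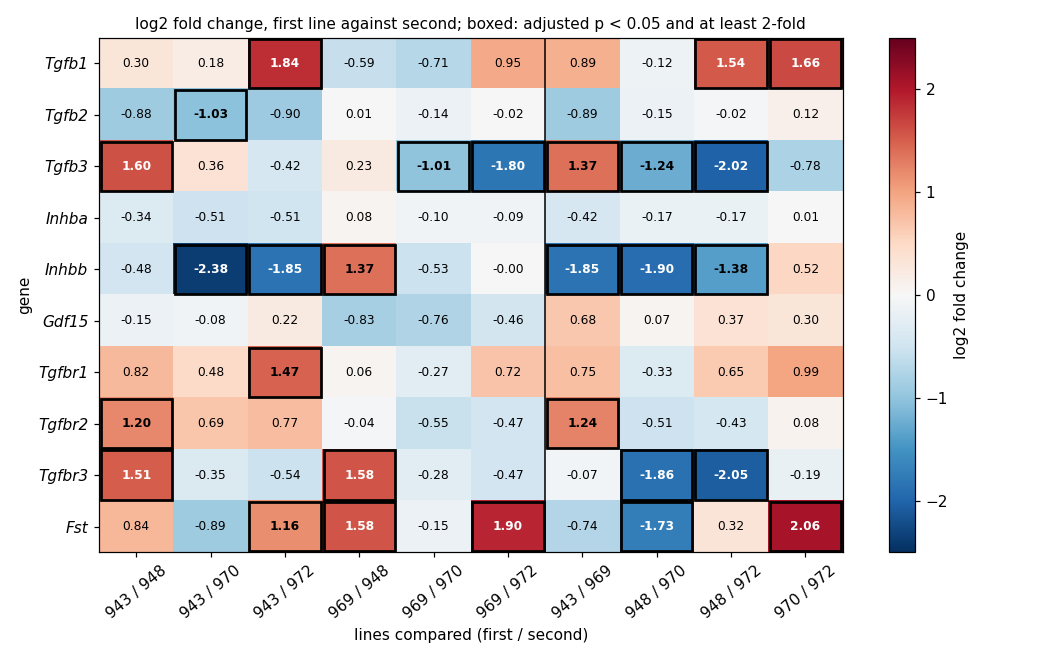
The log2 fold change of each gene (rows) in each pair of lines (columns, first line against second; red, higher in the first line), from edgeR's quasi-likelihood fit to 30 tumors. Boxed values had an adjusted p under 0.05 and at least 2-fold difference; the 6 columns left of the vertical line set a non-sensitive against a sensitive line, and no row is boxed in all 6.

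Across the 6 tests that set non-sensitive against sensitive lines, 0 of 10 members were called in the same direction throughout by edgeR, against 0.878% of all genes. DESeq2 and limma-voom also called 0, and 0 members reached an unadjusted p under 0.05 in the same direction in all 6. By mean log2 CPM per line, Tgfb2 and Inhba lay lower in both non-sensitive lines than in the 3 sensitive ones, while 16.7% of all genes tested lay apart in one direction or the other. This order depended on the scale. By mean CPM, MCA-969 lay above the sensitive MCA-948, at 48.05 against 47.80 for Tgfb2 and 85.4 against 80.9 for Inhba. In edgeR's fit MCA-969 also lay above MCA-948, by 0.0075 for Tgfb2 and 0.077 for Inhba on the log2 scale. For Tgfb2 the difference of the group means was -0.53 and for Inhba -0.41 on the log2 scale. The two-sided exact permutation test over the 5 lines gave p = 0.1 for each, the smallest that 10 divisions of the lines allow. A gene picked because its line means lie apart has the most extreme division on its side, so this p adds no support. Tgfb2 was no longer apart when any of MCA-948 W-2D, W-2G, a-1G or a-2D, MCA-969 W-1D or W-2D, or MCA-972 a-1 was left out, and the tumors of the groups overlapped for both genes.

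Among the TGF-beta ligands, Tgfb3 had the highest mean per length in every line and its line means varied most. In MCA-948 the order rested on the division by length, as mean CPM was 70.5 for Tgfb1 and 68.2 for Tgfb3. Tgfb3 (ENSMUSG00000021253, GRCm38 chr12:86056745-86079041, minus strand) encodes TGF-beta3, the form known from palate and scarless wound repair. It stood at 239, 284, 299.9 and 287 CPM in the 4 MCA-972 tumors and at 195, 236, 194 and 202 CPM in the 4 MCA-943 tumors. In MCA-970 the lowest, median and highest values were 129, 155 and 217 CPM. The remaining lines were low, with 51.7, 82.3 and 103 CPM in MCA-969 and 46.9, 59.4 and 108 CPM in MCA-948.

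Every MCA-972 and MCA-943 tumor thus exceeded every MCA-969 and MCA-948 tumor in Tgfb3, so that 1 line of each sensitivity was high and 1 of each was low. The log2 fold change was 1.6 (SE 0.18, adjusted p = 1.08e-08) in MCA-943 against MCA-948 and -1.80 (SE 0.18, adjusted p = 3.25e-09) in MCA-969 against MCA-972. Between the sensitive lines MCA-948 and MCA-972 it was -2.02 (SE 0.18, adjusted p = 1.42e-10). MCA-943 differed from MCA-969 by 1.37 (SE 0.18, adjusted p = 2.47e-07), while MCA-943 and MCA-970, neighbours in the order, did not pass the test at 0.36 (SE 0.20, adjusted p = 0.12). MCA-969 and MCA-948 at the low end differed by 0.23 (SE 0.16, adjusted p = 0.216). The value of -1.01 (SE 0.17) for MCA-969 against MCA-970 lay at the 2-fold limit, and its call was lost without any 1 of MCA-943 W-2G or a-1D, MCA-969 W-2G, W-R or W-2D, or MCA-970 a-1D or a-2D. Tgfb3 overlaps Ttll5 on the other strand, a gene at a median of 52.2 CPM, and as the strand setting of the counting is not stated, reads of the shared stretch cannot be assigned with certainty.

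Tgfb1 ran in another order, with MCA-972 lowest instead of highest. Tgfb1 (ENSMUSG00000002603, GRCm38 chr7:25687002-25705077, plus strand) encodes TGF-beta1, the form best known for immune suppression. Its level was 94.2, 84.4, 85.8 and 82.9 CPM in MCA-943 and 23.1, 23.2, 22.3 and 28.7 CPM in MCA-972, a difference of 1.84 on the log2 scale (SE 0.16, adjusted p = 8.81e-11). The lowest, median and highest values were 70.8, 75.0 and 83.2 CPM in MCA-970, 56.6, 69.7 and 85.9 CPM in MCA-948 and 34.7, 43.9 and 76.6 CPM in MCA-969.

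MCA-972 overlapped with no other line, and the sensitive lines MCA-948 and MCA-970 exceeded it by 1.54 (SE 0.14, adjusted p = 2.1e-10) and 1.66 (SE 0.15, adjusted p = 4.75e-10) on the log2 scale. MCA-943 and MCA-970, neighbours at the top, did not pass the test at 0.18 (SE 0.14, adjusted p = 0.275), nor did MCA-948 and MCA-970 at -0.12 (SE 0.12, adjusted p = 0.351). MCA-969 lay below MCA-943, MCA-948 and MCA-970 with adjusted p values of 8.98e-07, 3.27e-05 and 6.4e-06, but by less than 2-fold. Leukocytes are another known source of Tgfb1, and their markers varied within lines. The MCA-943 tumors a-1G and a-R had 22.4 and 29.4 CPM of summed leukocyte markers, W-2G and a-1D had 95.02 and 76.7, and Tgfb1 stood at 85.8, 82.9, 94.2 and 84.4 CPM in that order. In MCA-970 the summed level of 7 macrophage markers was 378 CPM in W-1D and 24.5 in W-2D, with Tgfb1 at 73.9 and 83.2 CPM. The part of leukocytes in the level of Tgfb1 was not tested.

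Tgfbr1 (ENSMUSG00000007613, GRCm38 chr4:47353222-47414931, plus strand), the gene of the type I receptor kinase, shared its extremes with Tgfb1. It stood at 67.4, 77.6, 67.6 and 60.8 CPM in MCA-943 and at 19.9, 23.8, 25.2 and 29.6 CPM in MCA-972, with no overlap between these lines and a log2 fold change of 1.47 (SE 0.18, adjusted p = 4.02e-08). The other lines lay between, at 38.8 ± 7.59 (SD, n = 8) in MCA-948, 40.5 ± 7.34 (SD, n = 8) in MCA-969 and 48.8 ± 8.31 (SD, n = 6) in MCA-970. MCA-970 exceeded MCA-972 by 0.99 (SE 0.16, adjusted p = 1.22e-05), just under the 2-fold limit, and MCA-948 and MCA-969 differed from each other by 0.06 (SE 0.12, adjusted p = 0.678).

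Since Tgfb1 and Tgfbr1 had the same highest and lowest line, the 250 bases before their starts are shown, with those of Tgfb2, which differed least from line to line among the TGF-beta ligands. Sequences are from RefSeq, build GRCm38.p6, whose table held starts for 7 of the 10 members; they lie at chr7:25686752-25687001 (plus strand), chr4:47352972-47353221 (plus strand) and chr1:186705990-186706239 (minus strand). Capitals mark the GC box GGGCGG and the TATA box TATAAA on either strand.
Tgfb1: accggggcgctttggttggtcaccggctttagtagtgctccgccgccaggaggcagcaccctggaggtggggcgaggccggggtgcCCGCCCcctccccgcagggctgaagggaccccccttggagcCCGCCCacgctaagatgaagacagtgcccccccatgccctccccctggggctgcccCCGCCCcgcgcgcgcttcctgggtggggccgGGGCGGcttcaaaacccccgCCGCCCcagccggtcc
Tgfbr1: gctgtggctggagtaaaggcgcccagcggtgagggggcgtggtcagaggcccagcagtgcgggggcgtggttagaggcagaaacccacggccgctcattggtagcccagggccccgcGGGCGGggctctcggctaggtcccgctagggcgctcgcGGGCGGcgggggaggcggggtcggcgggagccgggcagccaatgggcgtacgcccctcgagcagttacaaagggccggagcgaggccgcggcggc
Tgfb2: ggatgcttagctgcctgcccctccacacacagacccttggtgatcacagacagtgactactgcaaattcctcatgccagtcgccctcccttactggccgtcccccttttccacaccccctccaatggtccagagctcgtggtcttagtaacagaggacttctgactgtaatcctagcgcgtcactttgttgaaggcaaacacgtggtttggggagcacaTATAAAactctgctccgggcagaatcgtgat

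The Tgfb1 window held 5 GC boxes and the Tgfbr1 window 2, and neither held TATAAA, while Tgfb2 had 0 GC boxes and 1 TATAAA. Of the 32851 windows of the same length in the table, 32.7% held a GC box and 12.4% a TATA box. The SMAD motif CAGAC, present in 42.2% of windows on either strand, was found 2 times in the printed window of Tgfb2 and 0 times in those of Tgfb1 and Tgfbr1. TGANTCA, the motif of AP-1, stood in 6.75% of windows and in 0 of the 3. GC content was 75.2% for Tgfb1, 74.8% for Tgfbr1 and 53.6% for Tgfb2, against a median of 52.4% over all windows. A second Tgfbr1 start in the table had 0 GC boxes, 1 CAGAC and 52.8% GC.

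Tgfb2 (ENSMUSG00000039239, GRCm38 chr1:186622792-186705989, minus strand), the gene of TGF-beta2, was lowest in MCA-943. Its level there was 23.3, 27.1, 37.7 and 15.99 CPM. In the other 4 lines the means lay between 47.8 and 52.9 CPM, and single tumors between 23.7 and 65.8. MCA-943 was lower than MCA-970 by -1.03 on the log2 scale (SE 0.22, adjusted p = 0.000252), a call that was lost at -0.96 without MCA-943 W-2G, -0.85 without MCA-943 a-R and -0.95 without MCA-970 a-1D. Against MCA-948, MCA-972 and MCA-969 the values of -0.88, -0.90 and -0.89 had adjusted p of 0.000688, 0.00201 and 0.000714 but did not reach 2-fold. Between the other 4 lines the adjusted p was 0.477 or higher.

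Per length, the mix of ligand transcripts therefore differed from line to line. Tgfb3 made up 86.0 ± 2.15% (SD, n = 4) of the summed CPM per kb of the 3 genes in MCA-972, 73.7 ± 2.78% (SD, n = 4) in MCA-943 and 65.7 ± 4.6% (SD, n = 6) in MCA-970. Its share was 57.1 ± 7.0% (SD, n = 8) in MCA-969 and 46.7 ± 6.83% (SD, n = 8) in MCA-948. The share of Tgfb1 was 5.08 ± 0.66% (SD, n = 4) in MCA-972, which did not overlap with the 15.7 to 39.9% of the other tumors. The summed level itself was 95.2 ± 6.92 CPM per kb (SD, n = 4) in MCA-972 and 82.9 ± 5.54 (SD, n = 4) in MCA-943, against 42.4 ± 7.32 (SD, n = 8) in MCA-948 and 41.2 ± 7.39 (SD, n = 8) in MCA-969. MCA-970 stood at 72.0 ± 10.3 (SD, n = 6). Its tumors, at 62.8 to 89.5, overlapped with MCA-943 and MCA-972 and not with MCA-948 or MCA-969. By mean, 1 sensitive and 1 non-sensitive line again stood at each end, with the sensitive MCA-970 between them.

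**Figure D3:**
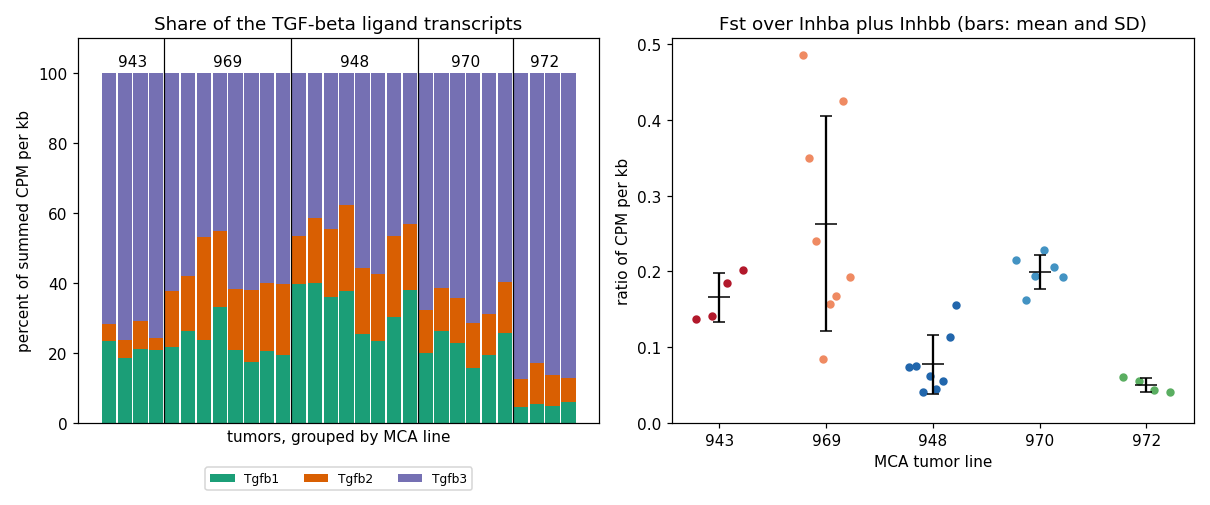
Left, the share of Tgfb1, Tgfb2 and Tgfb3 in their summed CPM per kb (percent, vertical axis) in each of the 30 tumors, grouped by line; the Tgfb1 share was 4.36 to 5.84% in MCA-972 and 15.7 to 39.9% in the other lines. Right, the ratio of Fst to Inhba plus Inhbb in CPM per kb, by tumor with mean ± SD per line, lowest on average in MCA-972 at 0.0404 to 0.0603.

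Tgfbr2 (ENSMUSG00000032440, GRCm38 chr9:116084293-116175360, minus strand), the gene of the ligand-binding type II receptor, was highest in MCA-943. It stood there at 333, 441, 509 and 346 CPM, above all tumors of the other lines, which lay between 91.8 and 271 CPM. MCA-943 exceeded MCA-948 by 1.20 (SE 0.16, adjusted p = 1.17e-07) and its fellow non-sensitive line MCA-969 by 1.24 (SE 0.16, adjusted p = 9.58e-08) on the log2 scale. Against MCA-970 and MCA-972 the differences of 0.69 and 0.77 passed the p-value (0.000951 and 0.00106) and not the 2-fold limit. MCA-970 and MCA-972 differed by 0.08 (SE 0.17, adjusted p = 0.733).

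Per length, Tgfbr2 was more abundant than Tgfbr1 in every tumor. The ratio of Tgfbr2 to Tgfbr1 in CPM per kb was 13.5 ± 2.02 (SD, n = 4) in MCA-972, where Tgfbr1 was low, and its lowest tumor there, at 11.8, lay above the highest of all other lines, at 10.3. In the other 4 lines its mean lay between 5.83 and 8.13. MCA-972 thus had much type II relative to type I receptor transcript, and little Tgfb1 relative to Tgfb3.

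Tgfbr3 (ENSMUSG00000029287, GRCm38 chr5:107106570-107289629, minus strand) encodes betaglycan, a co-receptor that presents TGF-beta2 and binds inhibin. It was low in MCA-948, with a lowest, median and highest value of 44.1, 47.3 and 132 CPM. In MCA-943 it stood at 173, 184, 211 and 169 CPM and in MCA-972 at 295, 253, 193 and 333 CPM. The lowest, median and highest were 118, 196 and 249.9 CPM in MCA-969 and 168, 242 and 297 CPM in MCA-970. Only the highest MCA-948 tumor reached the range of another line, that of MCA-969.

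All 4 comparisons with MCA-948 were called. The log2 fold change was 1.51 (SE 0.24, adjusted p = 3.83e-06) in MCA-943 against MCA-948, 1.58 (SE 0.21, adjusted p = 2.33e-07) in MCA-969 against MCA-948, -1.86 (SE 0.22) in MCA-948 against MCA-970 and -2.05 (SE 0.24) against MCA-972. None of the 6 pairs among the other 4 lines passed, their adjusted p being 0.11 or higher. Within MCA-948 the 2 tumors whose library numbers belong to the second of 3 sequences of numbers, here called runs, were a-2G at 132 and a-R at 97.9 CPM, and the 6 of the third run lay between 44.1 and 57.0 CPM. With the run as a covariate MCA-969 against MCA-948 fell to 0.75 (adjusted p = 0.0506), and within the second run, 2 tumors against 2, it was 0.74 (adjusted p = 0.107). The comparisons of MCA-948 with MCA-943, MCA-970 and MCA-972 were called with that covariate at 1.94, -1.03 and -1.22. The same covariate turned MCA-943 against MCA-969 from -0.07 (adjusted p = 0.826) to 1.19 (adjusted p = 0.00611). It also turned MCA-943 against MCA-970 from -0.35 (adjusted p = 0.262) to 0.91 (adjusted p = 0.0126), under the 2-fold limit. No run holds MCA-943 with either line. What the runs stand for is not given in the sources used here, and their part in the result was not tested beyond these fits. Tgfbr3 overlaps 4 other annotated genes, the highest of which reached 1.34 CPM.

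Activin genes behaved unlike each other: of all members, Inhba had the narrowest range of line means and Inhbb the widest. Inhba (ENSMUSG00000041324, GRCm38 chr13:16011851-16031621, plus strand) encodes the beta A subunit, 2 of which form activin A. The 4 MCA-943 tumors stood at 62.1, 66.5, 67.2 and 60.05 CPM and the 4 MCA-972 tumors at 82.3, 79.7, 91.1 and 110.4 CPM. The lowest, median and highest values were 57.7, 86.3 and 95.3 CPM in MCA-948 and 74.1, 88.8 and 119.95 CPM in MCA-970. All lines overlapped with MCA-969, but every MCA-943 tumor lay below every MCA-970 and every MCA-972 tumor. The range of line means was 0.50 on the log2 scale, against a median of 1.15 over all genes tested, and 90.7% of genes had a wider one. The adjusted p was 0.246 or higher in all 10 pairs. The fit shares its estimate of the spread over the lines, and the SD of log2 CPM was 1.01 in MCA-969 and 0.078 in MCA-943. A missing call therefore does not show equal levels.

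Within MCA-969, Inhba ran from 28.6 over a median of 59.0 to 260.3 CPM. The highest tumor was W-R, at 260.3 CPM or 8556 counts, and the next, a-R, was at 116 CPM. Inhba was thus more variable within 1 line than between the lines.

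Inhbb (ENSMUSG00000037035, GRCm38 chr1:119415465-119422248, minus strand) encodes the beta B subunit of activin B. It stood at 3.56, 3.995, 7.07 and 5.07 CPM in MCA-943 and at 16.9, 18.3, 18.1 and 17.6 CPM in MCA-972, without overlap. The lowest, median and highest values were 15.3, 17.3 and 20.4 CPM in MCA-969 and 18.8, 25.9 and 32.7 CPM in MCA-970. MCA-948 was the most spread, from 1.12 over a median of 4.31 to 25.04 CPM, and overlapped with MCA-943, MCA-969, MCA-970 and MCA-972.

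MCA-943 was lower than MCA-970 by -2.38 (SE 0.53, adjusted p = 0.000361), than MCA-972 by -1.85 (SE 0.55, adjusted p = 0.00546) and than MCA-969 by -1.85 (SE 0.51, adjusted p = 0.00247) on the log2 scale. MCA-948 lay below MCA-969, MCA-970 and MCA-972, with adjusted p values of 0.00282, 0.000151 and 0.00842. MCA-969, MCA-970 and MCA-972 did not pass against each other, with adjusted p of 0.253 or higher. With the run as a covariate all 6 calls were lost, at log2 fold changes of -0.80, -0.27 and -0.27 for MCA-943 against MCA-970, MCA-972 and MCA-969, 0.36 for MCA-969 against MCA-948, and -0.90 and -0.37 for MCA-948 against MCA-970 and MCA-972. Within the second run MCA-969 against MCA-948 gave 0.35 and MCA-948 against MCA-970 gave -0.88, with adjusted p of 0.775 and 0.26. These fits rest on the 2 MCA-948 tumors of that run, a-2G at 2.48 and a-R at 25.04 CPM. Without MCA-948 a-R, in the fit without run, MCA-969 against MCA-948 moved from 1.37 to 2.04, and the other MCA-948 values from -1.90 to -2.57 and from -1.38 to -2.05.

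Inside MCA-948, Inhbb had the same order as the markers of endothelial cells. The list Pecam1, Cdh5, Kdr, Tek, Vwf and Emcn summed to 437 CPM in a-R, 255 in a-2D, 202 in a-1G and 117 in W-1G. It summed to 58.7 in W-2D, 41.8 in a-2G, 23.03 in W-1D and 19.6 in W-2G. Inhbb took the same order, at 25.04, 8.87, 7.22, 5.68, 2.94, 2.48, 1.497 and 1.12 CPM, so that 8 of 8 tumors had the same rank on both scales. The order was noticed after the values were seen and is given without a test.

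The same sum went with other levels of Inhbb in other lines. MCA-972 had 16.9 to 18.3 CPM of Inhbb at an endothelial sum of 50.6 to 128 CPM, whereas MCA-948 W-2D and W-1G, at sums of 58.7 and 117, had 2.94 and 5.68 CPM. In MCA-969 the sum ran from 67.2 to 242 CPM with Inhbb between 15.3 and 20.4, and 1 of 8 tumors had the same rank. Spearman's rho between Inhbb and the sum within a line, as a description without a test, was positive in all lines. It was 0.43 over the 8 MCA-969 tumors and 0.71 over the 6 of MCA-970. Over the 4 tumors each of MCA-943 and MCA-972 it was 0.6 and 0.2. MCA-970 had the highest sums, 259 to 488 CPM, of which Cdh5 alone gave 236 ± 18.1 CPM (SD, n = 6), and MCA-943 had 58.3 to 128 CPM. All 6 markers were detected in each line, the lowest mean being 2.45 CPM for Emcn in MCA-943. The part of endothelial cells in the differences between lines was not tested.

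**Figure D4:**
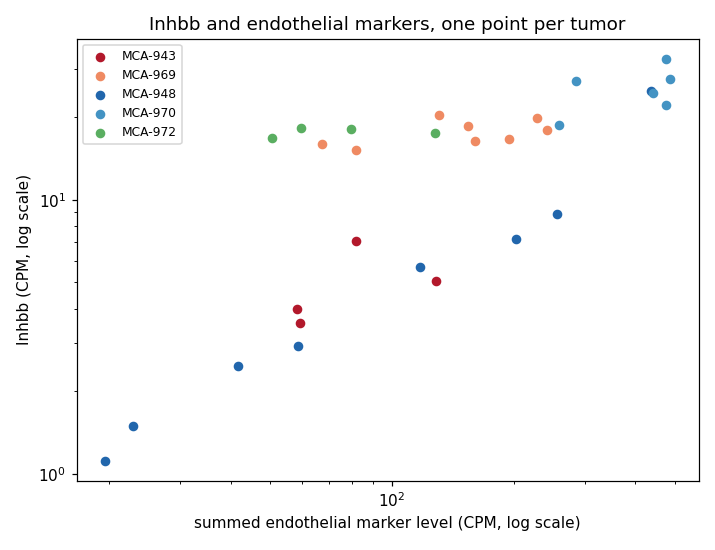
Inhbb level (vertical axis, CPM, log scale) against the summed level of 6 endothelial markers (horizontal axis, CPM, log scale) in each of the 30 tumors, colored by line. The 8 MCA-948 tumors lie on a rising path from 1.12 to 25.04 CPM of Inhbb, while the 4 MCA-972 tumors stay between 16.9 and 18.3 CPM at sums of 50.6 to 128 CPM.

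Follistatin, the trap of activins, is encoded by Fst (ENSMUSG00000021765, GRCm38 chr13:114452290-114458951, minus strand), which split the lines into a high and a low pair with MCA-943 between them. Its level was 5.87, 4.55, 7.09 and 5.65 CPM in MCA-972 and 10.3, 11.4, 15.3 and 14.9 CPM in MCA-943. The lowest, median and highest values were 4.63, 6.82 and 12.8 CPM in MCA-948, 12.3, 24.1 and 28.2 CPM in MCA-969, and 19.7, 22.98 and 30.8 CPM in MCA-970. Each pair held 1 sensitive line or more: MCA-970 with the non-sensitive MCA-969 at the top, MCA-948 with MCA-972 at the bottom.

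MCA-969 exceeded MCA-948 by 1.58 (SE 0.20, adjusted p = 5.41e-08) and MCA-972 by 1.90 (SE 0.26, adjusted p = 4.13e-07) on the log2 scale. Among the sensitive lines, MCA-970 exceeded MCA-972 by 2.06 (SE 0.27, adjusted p = 3.24e-07), and MCA-948 against MCA-970 stood at -1.73 (SE 0.21, adjusted p = 1.77e-08). MCA-943 exceeded MCA-972 by 1.16 (SE 0.28, adjusted p = 0.000721). In the order, MCA-943 stood at -0.74 against MCA-969 (SE 0.24, adjusted p = 0.00906) and at 0.84 against MCA-948 (SE 0.23, adjusted p = 0.0022), past the p-value and not the 2-fold limit. The neighbours at both ends did not pass, with MCA-969 against MCA-970 at -0.15 (SE 0.20, adjusted p = 0.524) and MCA-948 against MCA-972 at 0.32 (SE 0.24, adjusted p = 0.249). The call of MCA-969 against MCA-948 was kept within the second run, at 1.19 (adjusted p = 0.00821), as was MCA-969 against MCA-972 within the first, at 1.84 (adjusted p = 0.000206).

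As the activin genes were expressed in all lines, Fst was also set against them per length. The ratio of Fst to Inhba plus Inhbb in CPM per kb was 0.0499 ± 0.0094 (SD, n = 4) in MCA-972, 0.0774 ± 0.0390 (SD, n = 8) in MCA-948 and 0.166 ± 0.0323 (SD, n = 4) in MCA-943. In MCA-970 it was 0.200 ± 0.0224 (SD, n = 6) and in MCA-969 0.263 ± 0.142 (SD, n = 8), with the lowest MCA-969 tumor at 0.0838. Activin transcripts thus outnumbered Fst per length in each of the 30 tumors, the highest ratio being 0.486.

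Gdf15 (ENSMUSG00000038508, GRCm38 chr8:70629393-70632456, minus strand), a stress-induced cytokine of the family, was near the limit of detection. Tumors lay between 0.110 and 0.916 CPM, or 4 and 29 counts, and the line means between 0.286 in MCA-969 and 0.510 CPM in MCA-948. In none of the 10 pairs was it called, and the lowest adjusted p was 0.0196, for MCA-969 against MCA-948 at -0.83 (SE 0.30). Its receptor gene Gfral had 0 counts in all 30 tumors, where 3 counts, the limit that a count of 0 allows, were 0.0602 to 0.113 CPM, a bound for counting error alone. Ret, the co-receptor, averaged 0.736 to 0.934 CPM in MCA-969, MCA-943 and MCA-948, 2.44 in MCA-972 and 3.14 in MCA-970. Of 12 stress and p53 targets, 9 were called in 1 or more pairs, where 59% of all genes were. Phlda3, a p53 target, averaged 61.3 CPM in MCA-943 and 5.27 to 17.1 CPM in the other lines. Cdkn1a, the cell cycle inhibitor p21, averaged 22.4 to 65.8 CPM. Atf3, a stress-induced transcription factor, averaged 73.1 to 218 CPM, and Chac1, a target of the integrated stress response, 2.003 to 7.25 CPM, highest in MCA-948.

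The rest of the pathway was read from fixed lists. Of the 7 family receptors and co-receptors tested, 5 were called in 1 or more pairs, where 59% of all genes were called. Acvrl1, the type I receptor ALK1 best known from endothelial cells, reached 106 ± 8.7 CPM (SD, n = 4) in MCA-943, compared with line means of 3.503 to 9.94 CPM elsewhere, with a log2 fold change of 4.93 (SE 0.45, adjusted p = 1.35e-10) against MCA-948. Its co-receptor gene Eng averaged 131 CPM (SD 10.1) in the 4 MCA-943 tumors, 113 CPM (SD 15.2) in the 6 of MCA-970, and 20.2 to 50.6 CPM elsewhere. The endothelial sum was 58.3 to 128 CPM in MCA-943 and 259 to 488 CPM in MCA-970, and its part in these levels was not tested. Acvr2b, an activin type II receptor, averaged 2.35 CPM in MCA-969 and 0.177 CPM in MCA-970, a difference of 3.675 (SE 0.25, adjusted p = 3.48e-13). Acvr1c was called too but averaged at most 0.43 CPM.

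Among 20 genes of TGF-beta latency and activation, 18 were called in 1 or more pairs, against 59% of all genes. In MCA-948 against MCA-970, 0 were higher and 11 lower, where 9.64% and 19.8% of all genes were called, with a median log2 fold change of -1.05 against -0.05 over all genes. Set against MCA-972, MCA-948 had 0 higher and 9 lower, where 8.27% and 18.5% of all genes were called. MCA-943 had 8 higher and 2 lower than MCA-948 (17.7% and 11.3% of all genes), and MCA-969 had 6 higher and 1 lower (16.8% and 3.91%). Ltbp2, a member of the family that tethers latent ligand to matrix, averaged 48.7 CPM in MCA-948 and 353 to 676 CPM in the other lines. The fibrillin gene Fbn1 averaged 3723 CPM in MCA-943 and 457 to 1358 CPM in the others. Its relative Fbn2 ran the other way, with a mean of 12.6 CPM (SD 2.58) over the 4 MCA-943 tumors and line means of 98.8 to 345 CPM elsewhere. Mmp9, a matrix protease that can release the ligand, averaged 328 CPM in MCA-943 and 211 in MCA-970, and 32.4 to 53.2 CPM in the other 3 lines.

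Of 9 extracellular antagonists tested other than Fst, 6 were lower in MCA-948 than in MCA-970 and 6 lower than in MCA-972, where 19.8% and 18.5% of all genes were lower. None was higher in MCA-948 in either comparison, against 9.64% and 8.27% of all genes. Inha, the inhibin alpha subunit that turns activin subunits into inhibin, had 0 or 1 count in each of the 8 MCA-948 tumors and averaged 0.726 to 2.15 CPM in the other lines. The pseudoreceptor gene Bambi averaged 1.83 CPM in MCA-943, 2.18 in MCA-948 and 9.94, 25.04 and 16.1 CPM in MCA-969, MCA-970 and MCA-972. Fmod, a matrix proteoglycan, was uneven within lines, at 17.7 ± 25.5 CPM (SD, n = 6) in MCA-970. Wfikkn2, an inhibitor of myostatin and GDF11, averaged at most 1.11 CPM. Of 6 other activin-class ligand genes, Gdf11 was the 1 that passed the filter, at 14.6 to 26.3 CPM on average, and it was not called in any pair.

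Of 15 SMADs and their regulators, 8 were called in 1 or more pairs, against 59% of all genes, and at most 3 in 1 direction in a pair. Ski, a SMAD co-repressor, stood at 43.4 ± 5.22 CPM (SD, n = 8) in MCA-948 and 137 to 189 CPM on average elsewhere, with -1.83 (SE 0.12, adjusted p = 8.57e-14) against MCA-972. Tgif2, another co-repressor, averaged 11.2 CPM in MCA-972 and 18.6 to 34.8 in the other lines. Pmepa1, a feedback inhibitor, was lowest in MCA-969 at 83.6 ± 21.3 CPM (SD, n = 8). Smad6, the inhibitor of the BMP branch, averaged 0.808 to 1.93 CPM.

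The 19 TGF-beta target genes of fibroblasts were all called in 1 or more pairs, against 59% of all genes. Smad7, Skil and Pmepa1 are also on the list of SMADs and their regulators, so the lists are not independent. MCA-943 was higher than MCA-948 in 11 and lower in 1, with a median log2 fold change of 1.48 against -0.01 over all genes, and MCA-969 was higher in 8 and lower in 0. MCA-948 was higher than MCA-970 and than MCA-972 in 0, lower than the former in 13 and than the latter in 10. MCA-969 in turn was lower than MCA-972 in 10 and higher in 1, and lower than MCA-970 in 6 and higher in 1. The directions were mixed in MCA-943 against MCA-970, with 4 higher and 5 lower, and against MCA-972, with 1 higher and 2 lower. Of all genes, 11.3% were lower in MCA-943 than in MCA-948, and 16.8% were higher and 3.91% lower in MCA-969 than in MCA-948. In MCA-948, 9.64% were higher than in MCA-970, and 8.27% higher and 18.5% lower than in MCA-972. For MCA-969 the share was 10.3% in each direction against MCA-972 and 10.7% against MCA-970. For MCA-943, 12.6% were higher and 14.8% lower against MCA-970, and 12.2% and 13.4% against MCA-972. Finally, 17.7% of all genes were higher in MCA-943 than in MCA-948 and 19.8% lower in MCA-948 than in MCA-970. The counts of 11 and 13 of 19 exceed these shares. No test was made on the list, which was chosen with earlier results of these data known, and nothing is read from the excess.

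Acta2, the smooth muscle actin of myofibroblasts, averaged 640.03 CPM (SD 59.1) over the 4 MCA-943 tumors and 602 CPM (SD 172) over the 4 of MCA-972, against 16.5 CPM (SD 9.81) over the 8 of MCA-948. Tagln, which encodes the actin-binding protein SM22, averaged 176 and 195 CPM in the same lines and 3.99 CPM in MCA-948, a difference of -5.61 (SE 0.41, adjusted p = 2.3e-12) for MCA-948 against MCA-972. Postn, a matrix protein gene, averaged 11448 and 14721 CPM in MCA-943 and MCA-972, and 1039 and 746 CPM in MCA-948 and MCA-969. Cdkn2b, a cell cycle inhibitor that TGF-beta induces, had a mean of 2.16 CPM (SD 1.39) over the 4 MCA-943 tumors and line means of 47.8 to 82.2 CPM elsewhere. The list shares Col1a1 and Col1a2 with the fibroblast markers, whose sum was 35499 to 40814 CPM in MCA-943, 16190 to 24465 in MCA-970 and MCA-972, and 7372 to 12959 in MCA-948 and MCA-969. Their part in the result was not tested.

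**Figure D5:**
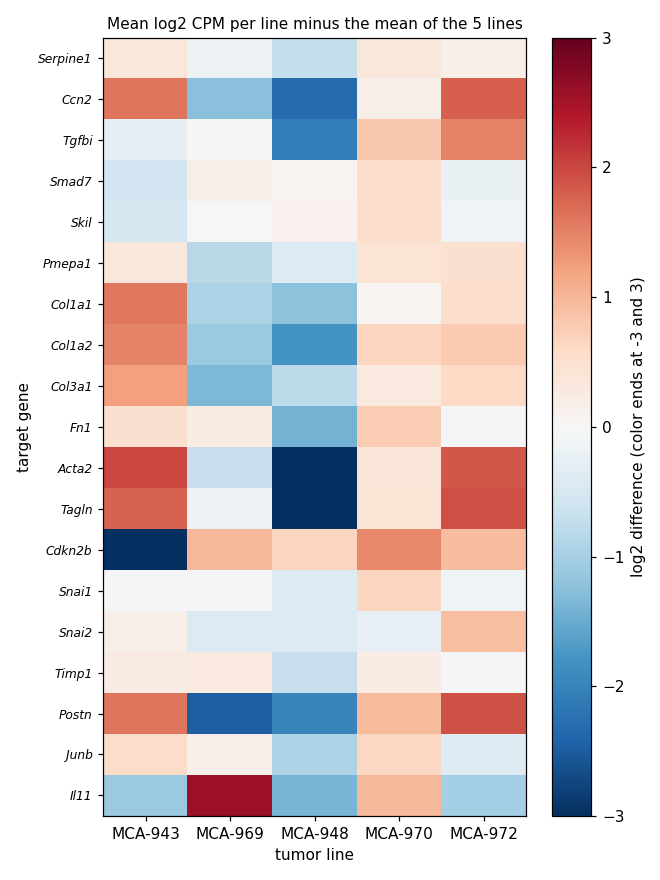
Mean log2 CPM of each of 19 TGF-beta target genes (rows) in each line (columns) minus the mean of the 5 lines; red is above and blue below that mean, and colors end at -3 and 3. In MCA-948 most rows are blue, with Acta2 at 16.5 and Tagln at 3.99 CPM there, and Cdkn2b is blue in MCA-943 at 2.16 CPM.

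The genes most like the 3 members with the widest range of line means were sought over 30 tumors by Pearson's r of log2 CPM, which here mostly follows the 5 lines. For Inhbb, Sox7 (r = 0.93), Adgrg1 (0.91), Tcaf2 (0.91), Atp9a (0.90) and Plekhg1 (0.90) came first. For Tgfbr3 they were Ugt1a6b (0.96), Ypel4 (0.95), Sema6c (0.95), Ace (0.95) and Tmem9 (0.94). For Tgfb3 they were Sh3d19 (0.97), Ddit4l (0.96), Vgll3 (0.95), Ccdc80 (0.95) and Mettl21a (0.95).

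Most titles carry a letter, W or a, whose meaning the labels do not give. MCA-943 had 1 W and 3 a tumors and MCA-972 had 0 W and 3 a. MCA-948 and MCA-969 had 4 of each letter and MCA-970 had 3 of each. Line and letter are thus partly confounded. Transcripts of NK cells were lower in a, with Ncr1 at -5.56 (SE 0.61, adjusted p = 6.16e-06), the granzyme gene Gzma at -5.06 (SE 0.55, adjusted p = 6.16e-06) and the perforin gene Prf1 at -4.12 (SE 0.49, adjusted p = 2.25e-05) on the log2 scale. Klrb1c, the gene of NK1.1, at -2.36, and Tbx21 at -2.02 passed as well, while Eomes at -0.86 and Itga1 at 0.41 did not, so 5 of the 7 NK and ILC1 markers moved with the letter. Within the 4 lines that have both letters, over 26 tumors, 0 of 10 members differed between the letters at an adjusted p under 0.05 in edgeR's test, as did 0.272% of all genes. At an unadjusted p under 0.05 there were 3 members, all higher in a: Tgfb3 by 0.36 (SE 0.11), Tgfbr2 by 0.29 (SE 0.10) and Inhbb by 0.71 (SE 0.30) on the log2 scale. Their adjusted p values in edgeR were 0.329, 0.442 and 0.586, and DESeq2 and limma-voom called 0 members as well. Endothelial markers lay higher in a too, Tek by 1.02 (adjusted p = 0.431) and Kdr by 1.02 (adjusted p = 0.528), without passing the test, and the part of NK or endothelial cells in the values of the members was not tested.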

How the data were processed

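RNA of 30 tumors was sequenced. The authors aligned reads to GRCm38 with STAR 2.5.3a and assigned them by featureCounts, version 1.5.2 in the processing notes, with a strand setting not given in the sources used here. Column names of the table point to removal of duplicates with molecular identifiers. The authors deposited raw counts of 48440 genes. Names and positions came from GENCODE mouse release M21, which named 48058 genes.

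Tumors were grouped by the line in their labels. Counts were scaled with edgeR 4.0.16 (TMM), filtered by filterByExpr with the line as group, and fitted to all 30 tumors by the robust quasi-likelihood method (R 4.3.3). Called genes had a Benjamini-Hochberg adjusted p under 0.05 over 16862 genes and a log2 fold change of 1 or more in size; SE is the fold change over the root of F. Log2 CPM used a prior count of 2. The members and lists were chosen with earlier results of these data known. Named genes are the 10 members, the 4 tested genes of each list with the widest range of line means, and the 5 genes most like each of 3 members; cell type markers are named beside them. Alternatives used DESeq2 1.42.0 and limma 3.58.1, other filters, thresholds and covariates, and left out each tumor in turn. The fits were tested on simulated data.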

Additional observations from a re-analysis of the deposited data

Results flagged for a closer look

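A tumor far from the others of its line was sought for the 10 members in the 5 lines, 50 groups of 4 to 8 tumors, by the gap to the next tumor over the range of the line. The gap was taken on CPM, and 5 values stood out here. Chance flags about 1 in 20 such groups if values are normally distributed, which was not tested. On the log2 scale Inhba was at 8.02, 6.86 and 4.84 in the highest, next and lowest MCA-969 tumors, and Tgfb1 at 6.26, 5.64 and 5.12. The same places in MCA-948 held 4.65, 3.16 and 0.227 for Inhbb and 3.68, 3.09 and 2.23 for Fst. Each of these gaps took a smaller share of the range than on CPM.

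Inhba in MCA-969 W-R was at 260.3 CPM, with the next of 8 tumors at 116 CPM, a gap of 0.621 of the range. The same tumor had the highest Tgfb1 of its line, at 76.6 CPM against 49.7 CPM in the next, a gap of 0.642 of the range. Its summed leukocyte markers were 3.89 CPM and its macrophage markers 18.9 CPM, within the range of the line. In MCA-948 a-R, Inhbb was at 25.04 CPM and the next tumor at 8.87, a gap of 0.676, beside the highest summed endothelial markers of the line at 437 CPM. Fst in that tumor was at 12.8 CPM against 8.47 in the next, a gap of 0.528, just past the limit for 8 tumors. Tgfb1 in MCA-972 a-R was at 28.7 CPM against 23.2, a gap of 0.86 of a narrow range over 4 tumors. No member's difference between the title letters varied from line to line at an adjusted p under 0.05 in edgeR, the lowest adjusted p being 0.458 for Tgfbr3, where unadjusted p was under 0.05 for Tgfbr3 (0.0369) and Inhbb (0.0451).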

How the results depend on the processing

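Of the 28 called differences of single members, 0 changed direction under the alternative tools, filters, covariates and fits or when each tumor was left out. Other thresholds and left-out tumors aside, calls were lost in 8 of the 28 under some alternative, 6 of them those of Inhbb with the run as a covariate. Leaving out single tumors lost the calls of 2, Tgfb2 in MCA-943 against MCA-970 and Tgfb3 in MCA-969 against MCA-970. Of the 72 that were not called, 23 changed sign under some alternative other than a threshold or a left-out tumor. Only Tgfbr3 in MCA-943 against MCA-969 was then called in the other direction, at 1.19 with the run as a covariate.

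Counts of members moved most with the fold threshold. The shares of all genes called at the other thresholds are not given here, so nothing about the members is read from these counts. Without it, 7 were called in MCA-943 against MCA-948 and against MCA-969, 5 in MCA-943 against MCA-970, MCA-969 against MCA-948 and MCA-969 against MCA-972, and 4 in MCA-969 against MCA-970 and MCA-970 against MCA-972. With a limit of 2 on the size of the log2 fold change, 2 remained in MCA-948 against MCA-972, 1 in MCA-943 against MCA-970 and in MCA-970 against MCA-972, and 0 in each of the other 7 pairs. In MCA-943 against MCA-970 the run as a covariate left 1. In MCA-969 against MCA-970 the count went from 1 to 0 with a mean of at least 1 CPM or without the 2 MCA-969 tumors labelled sensitive, and to 2 within one run. Members apart by sensitivity went from 2 to 1 without these 2 tumors, Tgfb2 being the lost one. Tgfb3 in MCA-969 against MCA-970 stood at -0.998 and -0.948 in the former cases, so the cause was the 2-fold limit; the other causes were not tested.

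Leaving out each tumor in turn gave 3 to 4 members in MCA-943 against MCA-948, MCA-943 against MCA-969 and MCA-969 against MCA-948, 1 to 3 in MCA-943 against MCA-970, 4 to 5 in MCA-943 against MCA-972, 4 in MCA-948 against MCA-970 and against MCA-972, 0 to 1 in MCA-969 against MCA-970, 2 to 3 in MCA-969 against MCA-972 and MCA-970 against MCA-972, 1 to 3 apart by sensitivity, and 0 in all 6 comparisons and between letters. MCA-943 against MCA-970 had 1 without MCA-943 W-2G, MCA-943 a-R or MCA-970 a-1D.

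With the animal code of the titles as a replicate block, the counts were 3, 2 and 4 for MCA-943 against MCA-948, MCA-970 and MCA-972, 3, 1 and 2 for MCA-969 against them, and 0 in all 6; no count changed. Deviations from the line means of 62 pairs with the same code in different lines correlated at a median of 0.012 (-0.43 to 0.44). For 290 other pairs of different lines the median was -0.006 (-0.42 to 0.40). The same code also recurs within a line under both letters, as in MCA-948 a-2G and W-2G. Neither result can decide whether a code marks 1 animal, which the labels do not say. Only 2 lines share the first run and 2 the third, so a fit with run leans on the few tumors of MCA-948 and MCA-969 in the second. Depth limits Gdf15, at 4 to 29 counts.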
